A study of Mus musculus with 6 samples.

Results

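Arginine handling was followed through 10 genes in the epididymal fat of obese mice: those that make arginine (Ass1, Asl), bring it into the cell (Slc7a2), split it into urea and ornithine (Arg1, Arg2), decarboxylate that ornithine (Odc1), turn arginine into nitric oxide (Nos2, Nos3) and remove the methylarginines that block nitric oxide synthases (Ddah1, Ddah2). They were found by symbol, 10 of the 35275 genes in the expression table, and were chosen on results of this same contrast, so their values are given as a description with no test. KO mice (TfrcAKO) carried a deletion of the transferrin receptor gene Tfrc, and WT mice (Tfrcfl/fl) carried the floxed allele. All were male C57BL/6 mice, put on a diet of 60% fat at 2 months of age, kept on it for 10 weeks and sampled at 4.5 months. RNA-seq was run on 3 KO and 3 WT samples of whole epididymal adipose tissue. The labels give neither the Cre driver nor what the letter A in the knockout's name stands for, and they do not say whether each sample is 1 animal or a pool, so the error behind every p-value is that among the libraries of a group and may be technical.

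Arginine stands at a branch point. Argininosuccinate synthase (Ass1) joins citrulline to aspartate and argininosuccinate lyase (Asl) splits the product into arginine and fumarate, so that a cell can rebuild arginine from the citrulline that nitric oxide synthases release. Arginases and nitric oxide synthases draw on the same arginine. In fat tissue, Arg1 and Nos2 are best known from macrophages, where interleukin-4 signalling induces the first and interferon and bacterial products the second, whereas Nos3 is the synthase of endothelium.

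The libraries held between 25252839 (KO replicate 3) and 30650624 (KO replicate 1) assigned reads. Levels are FPKM, reads scaled to gene length and library depth, and values below stand in the order of replicates 1, 2 and 3. Tfrc itself had 7.10, 8.27 and 9.5 FPKM in KO, against 11.1, 13.2 and 11.9 FPKM in WT, so every KO library was lower and none was near 0. Its log2 difference was -0.52 ± 0.12 (SE; limma with Benjamini-Hochberg adjustment over 14383 genes, adjusted p = 0.0147), and the call was lost without WT replicate 2 (adjusted p = 0.0596) or without WT replicate 3 (adjusted p = 0.0527). KO replicate 3 stood apart from the other KO libraries: on the first principal component, which held 78.3% of the variance, it scored 60.9, against 21.7 and 25.2 for KO replicates 1 and 2. WT replicates 1, 2 and 3 scored -28.6, -41.7 and -37.5, so KO replicate 3 lay furthest from WT on the axis that separates the groups. Mature adipocyte markers, led by Fabp4, were abundant in all 6 libraries, and epididymal epithelium markers summed to between 0 and 1.62 FPKM in KO and between 0 and 0.0527 FPKM in WT, with Lcn5 and Spinkl at 0 in all 6 libraries. Because this is whole tissue, fewer cells of a type and less RNA per cell cannot be told apart.

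Of the 10 genes, 9 reached 0.5 FPKM in at least 3 libraries, the level required for the fit over all genes, and Arg2 did not. Ass1, Nos2, Nos3 and Odc1, 4 of the 9, had every KO library above every WT library; over all 14383 genes that held for 29.1%. Asl, Arg1 and Slc7a2, 3 of the 9, had every KO library below every WT library, against 31.0% of all genes, and the remaining 2, Ddah1 and Ddah2, overlapped. The median log2 difference of the 9 was 0.17, with 6 positive and 3 negative, against -0.03 over all genes. A large part of the transcriptome differed: 43.5% of genes were called at an adjusted p under 0.05, 21.9% higher and 21.6% lower in KO. Since the genes were chosen on this contrast, nothing is read from their counts against these shares.

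**Figure D1:**
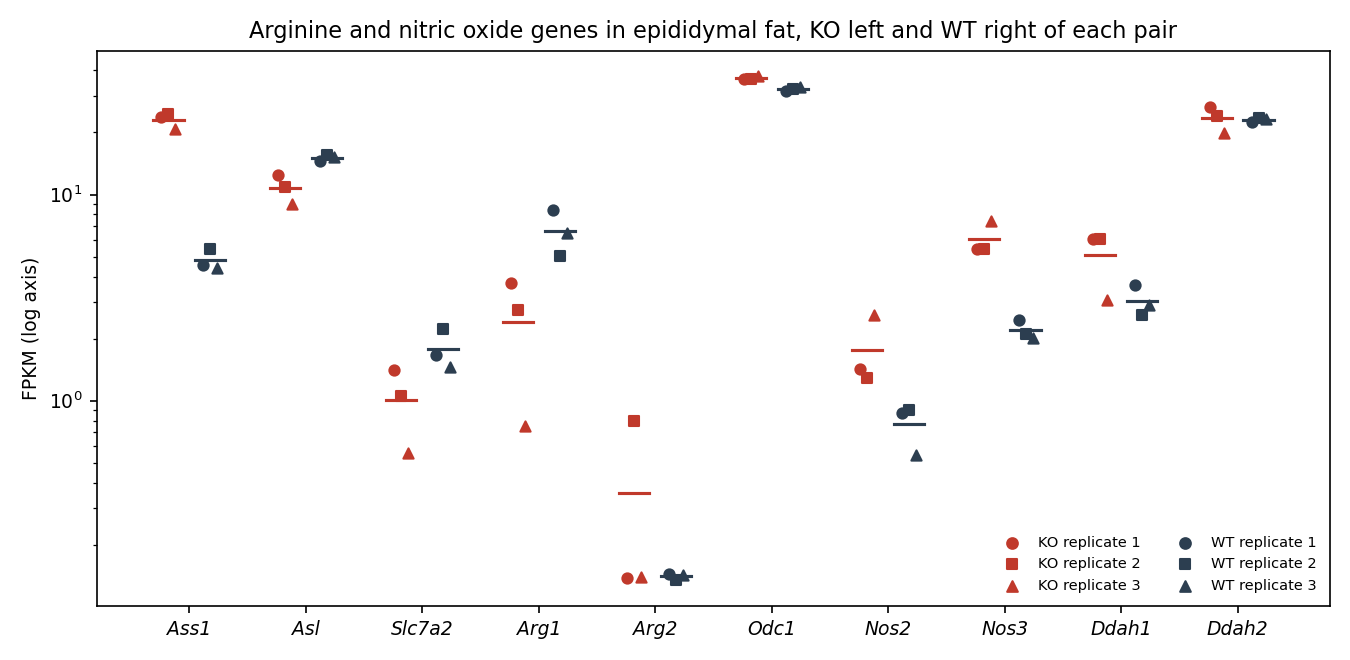
FPKM of the 10 arginine and nitric oxide genes on a log axis, with 1 point per library, KO left and WT right for each gene, and horizontal lines at the group means (n = 3 each). Ass1 and Nos3 sit higher in all KO libraries, Arg1 lower in all of them, and KO replicate 3 (triangle) is at the edge of its group for each of the 9 genes that passed the filter. KO replicate 1 (circle) is at the edge for 7 of these 9.

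Ass1 had the largest difference of the 10. This gene (ENSMUSG00000076441, mm10 chromosome 2, 31470207 to 31520672, plus strand) had 23.7, 24.6 and 20.8 FPKM in KO, against 4.55, 5.41 and 4.42 FPKM in WT. These values rest on 890 to 1231 reads per library in KO and 221 to 239 in WT. The lowest KO library stood 3.84 times above the highest WT library, and both groups were tight. The means were 23.0 ± 2.01 FPKM in KO and 4.79 ± 0.538 FPKM in WT (SD, n = 3 each), 4.81-fold higher in KO, with a log2 difference of 2.15 ± 0.10 (SE) on the log2(FPKM + 0.5) scale. In absolute size that difference lay at the 99.6th percentile of all genes tested.

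The stretch before the Ass1 transcript start is shown because this gene carries the largest difference. It is the 250 bases before the start in RefSeq (GRCm38.p6, chr2:31470020-31470269, plus strand), read 5′ to 3′, with capitals marking the GC box GGGCGG and the E-box CACGTG; its last 63 bases lie past the start that the expression table gives for the gene.

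Ass1: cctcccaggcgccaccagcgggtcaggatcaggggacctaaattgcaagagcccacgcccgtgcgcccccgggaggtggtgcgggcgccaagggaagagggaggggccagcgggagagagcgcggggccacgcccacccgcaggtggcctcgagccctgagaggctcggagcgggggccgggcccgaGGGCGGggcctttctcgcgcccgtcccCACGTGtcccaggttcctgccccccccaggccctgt

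The E-box, a palindrome and so the same on both strands, begins 36 bases before the RefSeq start, and the GC box begins 63 bases before it, with no overlap between them. Both therefore lie within the gene by the start that the expression table gives. Windows of this kind were found by symbol for 4 of the 10 genes, Ass1, Ddah1, Ddah2 and Odc1. CACGTG occurred in that of Ass1 alone among the 4, and in 6.02% of all 32851 windows of the same length. GGGCGG or its reverse complement CCGCCC occurred in those of Ass1, Ddah2 and Odc1, and in 32.7% of all windows, while TATAAA, searched on both strands, was in none of the 4 and in 12.4% of all. These are matches of letters only, and say nothing of which factor, if any, is bound.

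Asl went the other way, by less. This lyase (ENSMUSG00000025533, chromosome 5, 130011258 to 130025132, minus strand) had 12.5, 10.9 and 9.04 FPKM in KO, against 14.5, 15.6 and 15.2 FPKM in WT. All KO libraries were below all WT libraries, with KO replicate 3 lowest. The means were 10.8 ± 1.71 FPKM in KO and 15.1 ± 0.558 FPKM in WT, a log2 difference of -0.47 ± 0.12. The order of the 2 synthesis genes within a library was therefore inverted between the groups. Ass1 over Asl was 1.90, 2.26 and 2.30 in KO, against 0.314, 0.347 and 0.291 in WT, on a per-length scale: in KO there was more Ass1 than Asl mRNA, in WT less.

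The 2 arginases differed in level and in pattern. Arg1, the cytosolic arginase (ENSMUSG00000019987, chromosome 10, 24915208 to 24927470, minus strand), had 3.71, 2.75 and 0.751 FPKM in KO, against 8.43, 5.05 and 6.50 FPKM in WT. The groups did not overlap, and KO replicate 3 lay far below the other KO libraries. The means were 2.40 ± 1.51 FPKM in KO and 6.66 ± 1.70 FPKM in WT, with a log2 difference of -1.45 ± 0.44, which became -0.93 without KO replicate 3. Arg2, the mitochondrial arginase (ENSMUSG00000021125, chromosome 12, 79130777 to 79156301, plus strand), was close to the limit of detection, with 0.137, 0.796 and 0.139 FPKM in KO, against 0.144, 0.134 and 0.143 FPKM in WT. Those levels are 6, 30 and 5 reads in KO and 6, 5 and 6 reads in WT, so that 1 library, KO replicate 2, stood above 5 nearly equal ones. Arg2 shares 285 bases with Vti1b on the opposite strand, which averaged 53.5 FPKM in KO and 52.6 FPKM in WT, and the sources used here do not say whether counting used strand.

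Nos2 and Nos3 were both higher in KO. Nos2, the inducible synthase (ENSMUSG00000020826, chromosome 11, 78920787 to 78960254, plus strand), had 1.42, 1.28 and 2.60 FPKM in KO, against 0.867, 0.897 and 0.542 FPKM in WT. The groups did not overlap, with KO replicate 3 highest and WT replicate 3 lowest. The log2 difference was 0.80 ± 0.24 and became 0.56 without KO replicate 3. Nos3, the endothelial synthase (ENSMUSG00000028978, chromosome 5, 24364810 to 24384474, plus strand), had 5.42, 5.43 and 7.40 FPKM in KO, against 2.45, 2.10 and 2.02 FPKM in WT. Each KO library exceeded each WT library by more than the spread within either group. The means were 6.08 ± 1.14 FPKM in KO and 2.19 ± 0.227 FPKM in WT, with a log2 difference of 1.28 ± 0.14. Nos3 shares 17423 bases with the antisense gene Gm15587, which averaged 0.367 FPKM in KO and 0.107 FPKM in WT, and 294 bases with Atg9b, at 0.352 FPKM in KO and 0.291 FPKM in WT. Nos3 exceeded Nos2 in all 6 libraries, by 3.83, 4.23 and 2.85 times in KO and by 2.82, 2.34 and 3.72 times in WT, ranges that overlap.

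The ratio of Arg1 to Nos2, whose enzymes draw on the same arginine, was lower in every KO library than in every WT library. Whether the 2 mRNAs lie in the same cells cannot be told from whole tissue. Arg1 over Nos2 was 2.62, 2.14 and 0.289 in KO, against 9.73, 5.62 and 12 in WT. Arg1 was the more abundant of the 2 in 5 libraries, and Nos2 was in KO replicate 3.

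**Figure D2:**
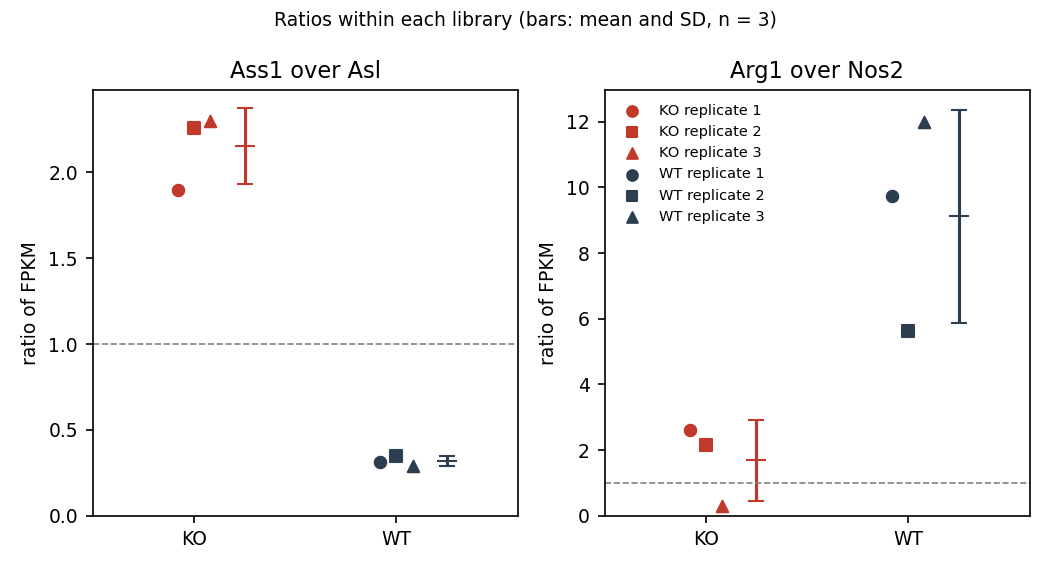
Ratios of FPKM within each library for Ass1 over Asl and Arg1 over Nos2, KO left and WT right, with the mean and SD of 3 libraries beside the points and a dashed line at a ratio of 1. Ass1 over Asl lies above 1 in all KO libraries and below 1 in all WT libraries, and Arg1 over Nos2 is lower in all KO than in all WT libraries.

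Markers of macrophages, endothelium and mature adipocytes also differed between the groups. Macrophage markers summed to 2102, 1949 and 919 FPKM in KO, against 4095, 4950 and 4473 FPKM in WT; 8 of 10 fell (5 without WT replicate 2) and none rose, with a median log2 difference of -1.17. Arg1 shares with them the lower level in KO and the lowest value in KO replicate 3, whereas Nos2 was highest in that library. Endothelial markers summed to 272, 214 and 326 FPKM in KO, against 117, 110 and 96.7 FPKM in WT; 8 of 8 rose, with a median of 1.08, and both their sum and Nos3 were highest in KO replicate 3. Mature adipocyte markers summed to 18571, 19210 and 25156 FPKM in KO, against 10202, 6999 and 7539 FPKM in WT; 9 of 10 rose, with a median of 1.61, beside the 2.15 of Ass1. In KO replicate 3 the adipocyte sum, like Nos3, was the highest, and Ass1 was the lowest of the KO libraries. Which cells hold the Ass1 mRNA cannot be told from whole tissue. No macrophage, endothelial or adipocyte marker was at 0. Most of the adipocyte sum was Fabp4, with means of 13620 FPKM in KO and 5774 FPKM in WT. Most of the macrophage sum was Lyz2, with means of 1179 FPKM in KO and 3284 FPKM in WT. The part of these cell types in the differences of Ass1, Arg1, Nos2 and Nos3 was not tested.

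**Figure D3:**
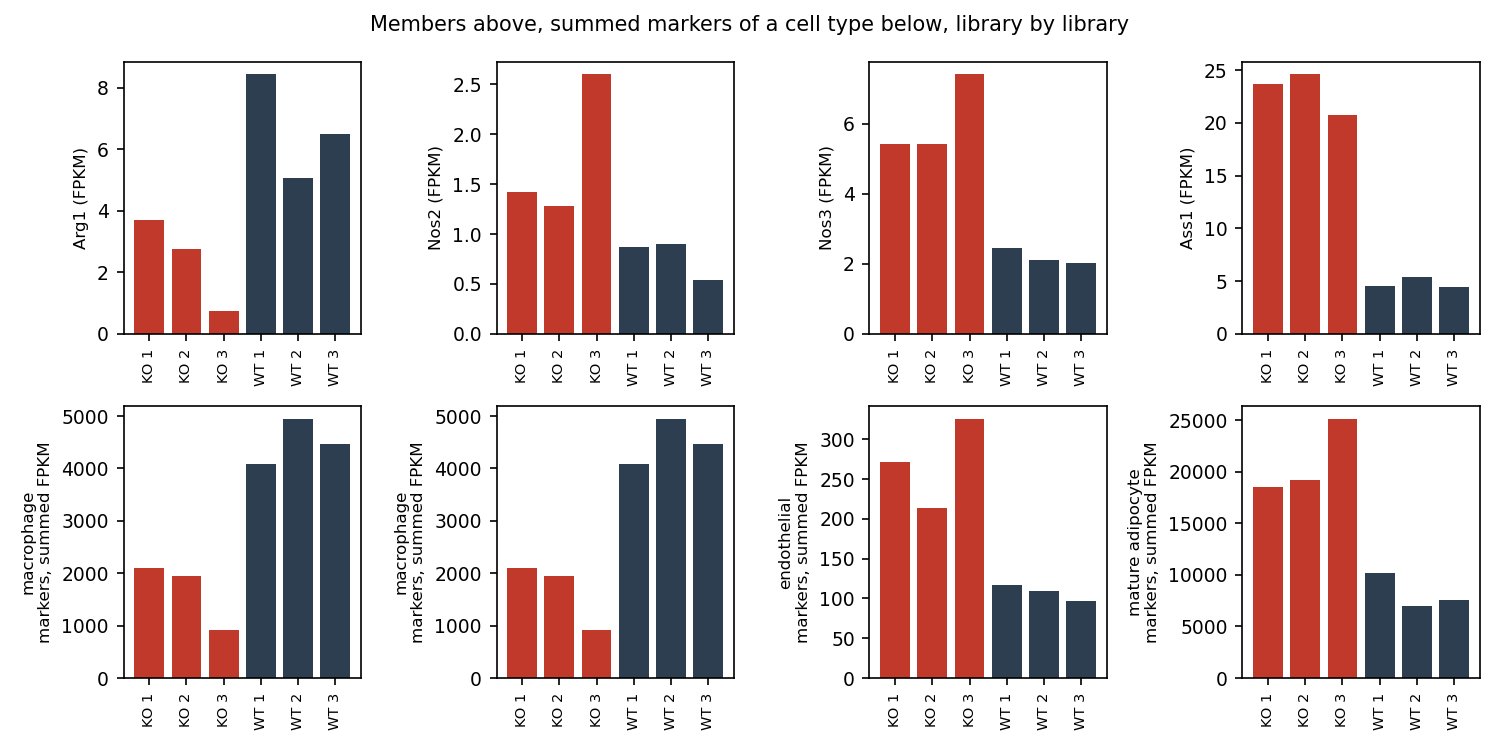
Bars of FPKM for Arg1, Nos2, Nos3 and Ass1 (upper row) above the summed FPKM of macrophage, endothelial or mature adipocyte markers (lower row), 1 bar per library, KO in red at the left and WT in dark blue at the right, all from 0. In KO replicate 3 the macrophage sum and Arg1 are lowest while Nos2, Nos3, the endothelial sum and the adipocyte sum are highest.

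Other marker lists moved as well. Lipid-associated macrophage markers fell in 7 of 8, and Lpl, which adipocytes also express, rose, a call lost without KO replicate 2 or any 1 WT library. Mast cell markers fell in 5 of 6, with sums of 37.4 to 80.7 FPKM in KO and 189 to 414 FPKM in WT. The mast cell, fibroblast and progenitor, B cell and neutrophil sums, like Arg1, were lowest in KO replicate 3. Mesothelial markers rose in 5 of 6 and smooth muscle and pericyte markers in 5 of 6. The smooth muscle and pericyte sum, like Nos3, was highest in KO replicate 3. Of 8 fibroblast and progenitor markers 2 fell, and of 2 tested neutrophil markers 1 did, and neither list had a lower call when any 1 WT library was left out. The neutrophil call was also lost without KO replicate 1 or KO replicate 2, and the fibroblast list had 1 lower without KO replicate 2 and gained 1 higher without KO replicate 3. None of 6 T cell or 4 B cell markers tested was called with all libraries, whereas 4 and 2 were lower without KO replicate 1. Without KO replicate 3, 1 T cell marker was lower.

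Slc7a2, a cationic amino acid transporter that carries arginine into macrophages (ENSMUSG00000031596, chromosome 8, 40862396 to 40922308, plus strand), had 1.41, 1.05 and 0.556 FPKM in KO, against 1.66, 2.23 and 1.46 FPKM in WT. The groups did not overlap, but KO replicate 1 lay just below WT replicate 3. The means were 1.01 ± 0.429 FPKM in KO and 1.78 ± 0.400 FPKM in WT, with a log2 difference of -0.63 ± 0.24, which became -0.39 without KO replicate 3.

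The dimethylarginine dimethylaminohydrolases break down asymmetric dimethylarginine, an inhibitor of nitric oxide synthases that is released when methylated proteins are degraded. Ddah1 (ENSMUSG00000028194, chromosome 3, 145758675 to 145894277, plus strand) had 6.08, 6.07 and 3.08 FPKM in KO, against 3.63, 2.61 and 2.92 FPKM in WT. KO replicates 1 and 2 were above all WT libraries and KO replicate 3 was among them. The log2 difference was 0.60 ± 0.26, and 0.90 without KO replicate 3. Ddah2 (ENSMUSG00000007039, chromosome 17, 35059035 to 35062095, plus strand) was more abundant, with 26.5, 24.1 and 19.8 FPKM in KO, against 22.4, 23.5 and 23.3 FPKM in WT. Its KO libraries spread on both sides of the WT libraries, and the log2 difference was 0.02 ± 0.11, with a sign that depended on which library was left out. Ddah2 over Ddah1 was 4.37, 3.97 and 6.43 in KO, against 6.16, 9.01 and 7.99 in WT, ranges that overlap.

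Odc1, ornithine decarboxylase, makes putrescine and opens polyamine synthesis. The gene (ENSMUSG00000011179, chromosome 12, 17544873 to 17551502, plus strand) had 36.4, 36.5 and 37.6 FPKM in KO, against 31.8, 32.6 and 33.4 FPKM in WT. The groups did not overlap and each was tight, at 36.8 ± 0.658 FPKM in KO and 32.6 ± 0.802 FPKM in WT. The difference was small, 0.17 ± 0.06 on the log2 scale.

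Ranked by mean FPKM, a per-length level, the KO order was Odc1, Ddah2, Ass1, Asl, Nos3, Ddah1, Arg1, Nos2, Slc7a2 and Arg2. In WT it was Odc1, Ddah2, Asl, Arg1, Ass1, Ddah1, Nos3, Slc7a2, Nos2 and Arg2. Ass1 was in the 3rd place in KO and the 5th in WT. Neighbours whose ranges overlapped were Ddah2 and Ass1, and then all those from Nos3 to Arg2, in KO. In WT they were only Arg1 and Ass1, and Nos3 and Slc7a2. KO replicate 3 was the lowest or the highest KO library for 9 of the 9 genes that passed the filter: lowest for Ass1, Asl, Arg1, Slc7a2, Ddah1 and Ddah2 and highest for Nos2, Nos3 and Odc1. KO replicate 1 was the lowest or the highest for 7 of the 9, and KO replicate 2 for 2. Every gene has a lowest and a highest library, so high counts of this kind arise in any set of genes.

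Profiles were compared by the root mean square difference of log2(FPKM + 0.5), centred on the mean over the 6 samples, among genes of at least 5 FPKM on average. For Ass1 the 3 nearest were Rbp7 (difference of 0.17), Bckdhb (0.28) and Id1 (0.29). Rbp7, a retinol-binding protein of fat and its endothelium, had 86.0, 86.0 and 92.1 FPKM in KO, against 18.3, 16.9 and 18.7 FPKM in WT. Among the 3 nearest to Arg1 were Lpxn (0.23) and Ccnb2, a mitotic cyclin (0.24). The nearest to Nos2 were Gstt2 (0.08), Ptges, which makes prostaglandin E (0.10), and Ets1 (0.11), and the nearest to Nos3 were Cacng7 (0.04), Fry (0.05) and Laptm4b (0.05). All of these have the 2-level pattern of the groups in common, which many genes of this contrast share.

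Around the 10 genes, 119 listed pathway genes were followed in 12 lists, and 95 of them passed the filter. Of the 95, 20 rose (21.1%) and 33 fell (34.7%) in KO, and 42 were not called (limma, adjusted p under 0.05 over all genes). Over all 14383 genes 21.9% rose and 21.6% fell, so the share that rose is that of all genes. The median log2 difference of the 95 was -0.15, against -0.03 over all genes, and no test of the lists against other genes was made. Without WT replicate 2 the counts were 13 higher and 15 lower, and without WT replicate 3 they were 13 and 17. Adjusted p-values that follow are limma's, with Benjamini-Hochberg adjustment over all genes tested.

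**Figure D4:**
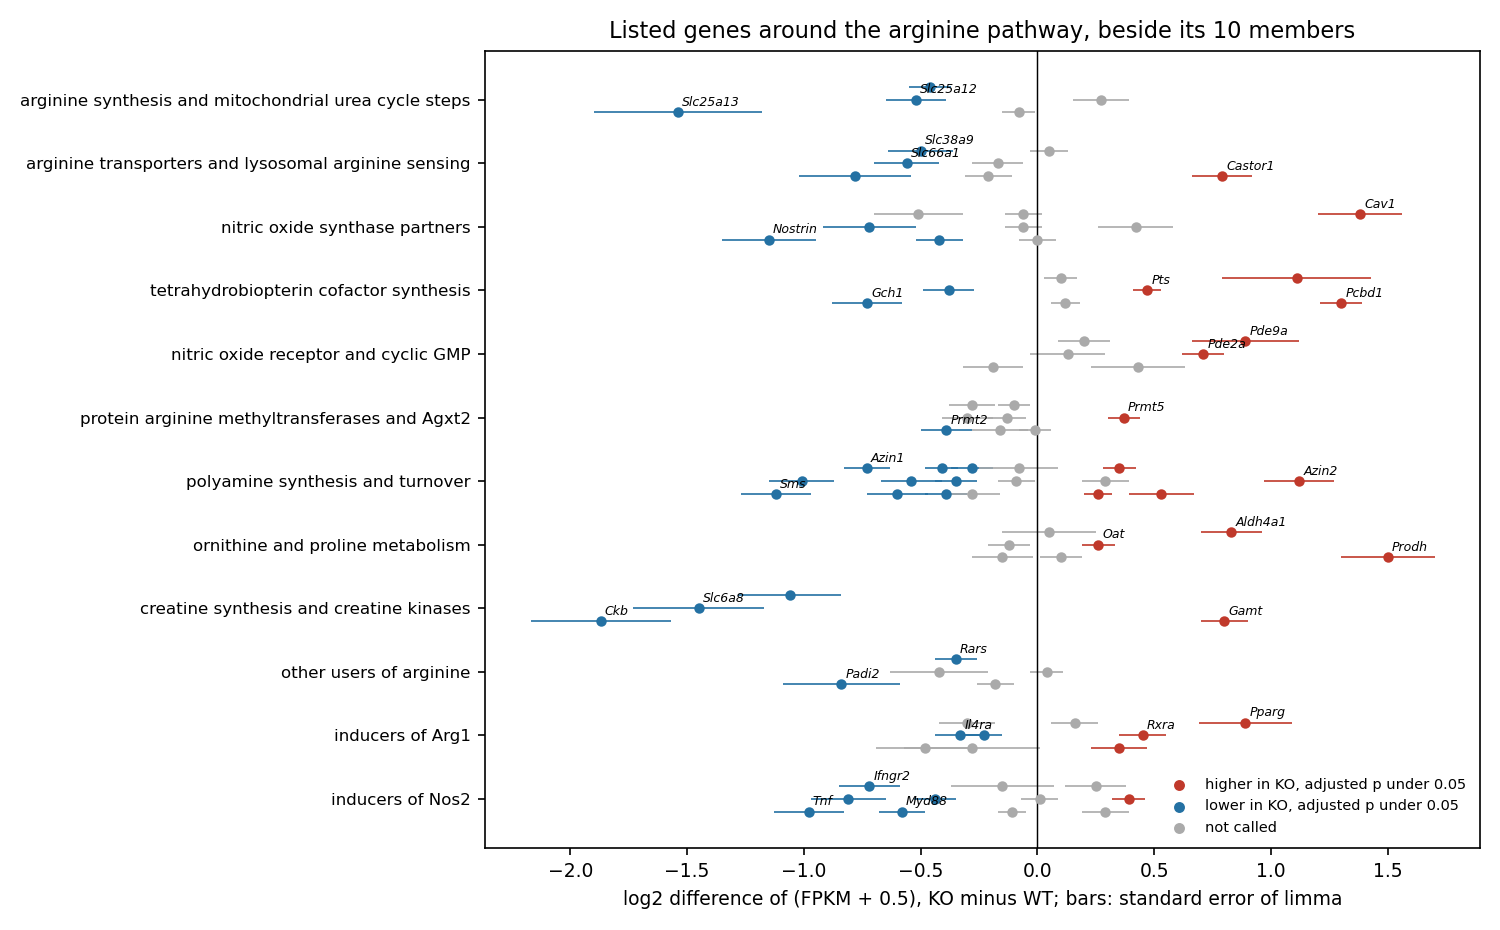
Log2 difference of (FPKM + 0.5), KO minus WT, with its standard error, for the listed genes that passed the filter, 1 point per gene, by list; red points were called higher and blue ones lower in KO, and grey ones were not called. Called genes lie only to the right of 0 in the ornithine and proline list and the nitric oxide receptor list, only to the left in the arginine synthesis list and among other users of arginine, and on both sides in the other 8 lists.

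The liver-type start of the urea cycle was low and uneven between libraries. Cps1, which makes carbamoyl phosphate, had 1.17, 0.634 and 0.0214 FPKM in KO, against 0.0123, 0.00691 and 0.159 FPKM in WT, and Otc, which makes citrulline from it, stayed at or below 0.261 FPKM in every library; neither was tested. Of the 5 genes of this list that passed the filter 3 fell and none rose. Slc25a13, the aspartate-glutamate carrier that supplies the aspartate used by Ass1, had 4.43, 4.76 and 1.47 FPKM in KO, against 9.55, 11.6 and 9.91 FPKM in WT (log2 difference -1.54 ± 0.36, adjusted p = 0.0160). Its paralogue Slc25a12 fell by 0.52 on the log2 scale (adjusted p = 0.0213). Without WT replicate 2 or without WT replicate 3 only 1 of the 3 was called, with Slc25a13 at an adjusted p of 0.0631 and 0.0530 and Slc25a12 at 0.0808 and 0.0676.

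Among the 7 tested genes of arginine transport and lysosomal arginine sensing 1 rose and 3 fell. Castor1, the cytosolic arginine sensor upstream of mTORC1, listed in the table under its older name Gatsl3, had 11.2, 10.9 and 14.6 FPKM in KO, against 7.49, 6.51 and 6.53 FPKM in WT (0.79 ± 0.13, adjusted p = 0.00561). The lysosomal arginine exporter Slc66a1, listed as Pqlc2, fell by 0.56 (adjusted p = 0.0175) and the lysosomal arginine sensor Slc38a9 by 0.50 (adjusted p = 0.0276). None of the 3 lower calls was made without WT replicate 2 or without WT replicate 3: Slc66a1 was then at 0.0626 and 0.0561, and Slc38a9 at 0.0991 and 0.064. Without WT replicate 1 the lower calls numbered 1, with Slc38a9 at 0.0699.

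Of 9 tested partners of the nitric oxide synthases 1 rose and 3 fell. Cav1, the caveolar coat protein that holds Nos3 inactive and is abundant in adipocytes and endothelium, had 769, 819 and 1041 FPKM in KO, against 403, 290 and 317 FPKM in WT (1.38 ± 0.18, adjusted p = 0.00390). Nostrin, which draws Nos3 away from the plasma membrane, went opposite to Nos3 itself, with 3.77, 3.81 and 2.15 FPKM in KO, against 7.20, 8.51 and 7.20 FPKM in WT (-1.15 ± 0.20, adjusted p = 0.00703). The lower calls numbered 1 without WT replicate 2 or without WT replicate 3, and the higher calls 2 without KO replicate 3.

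Tetrahydrobiopterin is a cofactor that all nitric oxide synthases need, and of its 7 genes 3 rose and 2 fell. Pcbd1, which recycles it, had 18.5, 21.2 and 17.9 FPKM in KO, against 7.33, 8.02 and 7.17 FPKM in WT (1.30 ± 0.09, adjusted p = 0.00279). Pts, the 2nd enzyme of its synthesis, rose by 0.47 (adjusted p = 0.00411). Gch1, the 1st and rate-limiting enzyme, had 3.63, 3.06 and 2.31 FPKM in KO, against 5.22, 4.92 and 5.53 FPKM in WT (-0.73 ± 0.15, adjusted p = 0.0106). Leaving out any 1 library left 1 of the 2 lower calls, that of Gch1.

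Downstream of nitric oxide, 2 of 6 tested genes of its receptor and of cyclic GMP rose and none fell. Pde2a, a phosphodiesterase stimulated by cyclic GMP, had 59.3, 47.4 and 54.8 FPKM in KO, against 33.7, 32.0 and 32.0 FPKM in WT (0.71 ± 0.09, adjusted p = 0.00404). Pde9a, which degrades cyclic GMP, rose by 0.89 (adjusted p = 0.0206), a call lost without KO replicate 1 (0.0505), without WT replicate 2 (0.0772) or without WT replicate 3 (0.0739). Of the 8 tested arginine methyltransferases 1 rose, Prmt5, by 0.37 (adjusted p = 0.00851), and 1 fell, Prmt2, by 0.39 (adjusted p = 0.0289). The Prmt2 call was lost without WT replicate 2 (0.0982) or without WT replicate 3 (0.0963).

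Past Odc1, polyamine genes went both ways: 4 of 17 rose and 9 fell, which became 2 and 4 without WT replicate 2, and 2 and 6 without WT replicate 3. Azin2, an antizyme inhibitor that protects ornithine decarboxylase, listed as Adc, had 11.5, 13.1 and 15.9 FPKM in KO, against 6.73, 5.04 and 6.02 FPKM in WT (1.12 ± 0.15, adjusted p = 0.00404). Azin1, of the same function, fell by 0.73 (adjusted p = 0.00410). Sms, spermine synthase, had 6.79, 6.02 and 4.46 FPKM in KO, against 12.2, 14.0 and 12.7 FPKM in WT (-1.12 ± 0.15, adjusted p = 0.00410); the annotation also holds a pseudogene, Sms-ps, that could share reads with it.

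Ornithine can also leave toward glutamate and proline, and of 7 tested genes there 3 rose and none fell. Prodh, which oxidizes proline, had 10.7, 11.0 and 17.7 FPKM in KO, against 4.05, 4.68 and 3.87 FPKM in WT (1.5 ± 0.20, adjusted p = 0.00404). Aldh4a1, the mitochondrial step after it, rose by 0.83 (adjusted p = 0.00554). Oat, ornithine aminotransferase, rose by 0.26 (adjusted p = 0.0204), a call lost without KO replicate 2 (0.0591), WT replicate 2 (0.0801) or WT replicate 3 (0.0777).

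Creatine synthesis begins with arginine, and all 4 tested genes of that list were called, 1 higher and 3 lower. Gatm, the enzyme that uses arginine, had 7.28, 9.21 and 4.76 FPKM in KO, against 16.6, 14.8 and 13.2 FPKM in WT (-1.06 ± 0.22, adjusted p = 0.011); it lies outside the rule for named genes and was added after its values were seen. Gamt, the last enzyme, had 59.2, 57.5 and 61.1 FPKM in KO, against 38.6, 31.2 and 32.0 FPKM in WT (0.80 ± 0.10, adjusted p = 0.00371). The creatine transporter Slc6a8 fell by 1.45 (adjusted p = 0.00943). Ckb, brain-type creatine kinase, had 120, 99.6 and 50.9 FPKM in KO, against 276, 331 and 330 FPKM in WT (-1.87 ± 0.30, adjusted p = 0.00594). Gatm, Slc6a8 and Ckb were lowest in KO replicate 3, as were the macrophage, mast cell, fibroblast and progenitor, B cell and neutrophil marker sums. What part any of these cell types has in the 3 genes was not tested. Of 5 other tested users of arginine 2 fell, the arginyl-tRNA synthetase gene Rars by 0.35 (adjusted p = 0.0184) and the peptidylarginine deiminase Padi2 by 0.84 (adjusted p = 0.0344). Neither was called without WT replicate 2 (0.0614 for Rars and 0.115 for Padi2) or without WT replicate 3 (0.0736 and 0.0791), and Padi2 was not without WT replicate 1 (0.0556).

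The known inducers of Arg1 and Nos2 were also mixed. Of 9 tested genes that can induce Arg1, 3 rose and 2 fell, but without WT replicate 2 this became 1 and 0, and without WT replicate 3 it became 0 and 0; without any 1 of the other libraries at most 1 was lower. Pparg, the adipocyte nuclear receptor that also acts in macrophages, rose by 0.89 (adjusted p = 0.0132; 0.0537 without WT replicate 2 and 0.0543 without WT replicate 3), beside the higher adipocyte markers. Its partner Rxra rose by 0.45 (adjusted p = 0.0119), a call lost without WT replicate 3 (0.05), and the interleukin-4 receptor Il4ra fell by 0.33 (adjusted p = 0.0428), a call lost when any 1 library other than KO replicate 1 was left out. Of 11 tested genes that can induce Nos2, 1 rose (2 without KO replicate 2 or without KO replicate 3) and 5 fell, while Nos2 itself was higher in KO. Tnf had 1.51, 1.39 and 0.942 FPKM in KO, against 2.74, 3 and 3.23 FPKM in WT (-0.98 ± 0.15, adjusted p = 0.00541). The interferon gamma receptor chain Ifngr2 fell by 0.72 (adjusted p = 0.00730) and the Toll-like receptor adaptor Myd88 by 0.58 (adjusted p = 0.00720).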

How the data were processed

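RNA-seq reads were processed by the authors with CASAVA, FastQC, STAR 2.5 and HTSeq 0.6.1 on mm10, per the submitters' processing notes, which give no role or order. The deposited table holds FPKM and a gene length per gene, per the file headers; strand use in counting is not given in the sources used here. The deposited FPKM times gene length, divided by the value of 1 read in that library (estimated from its lowest values), came out whole for 100% of values (within 0.01 read), and these reads are used as depth and in an alternative. Of its gene names 27 had turned into dates and were restored from their identifiers.

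Genes with at least 0.5 FPKM in 3 of the 6 samples were fitted with limma 3.58.1 (R 4.3.3) on log2(FPKM + 0.5), with a mean trend and robust moderation, two-sided, Benjamini-Hochberg adjustment over 14383 genes and a threshold of 0.05; the script was tested on simulated data. Fold changes on this scale understate those of low genes. Groups follow the labelled genotype. The members, the pathway and marker lists and the tests were chosen with earlier results of these data known. All 10 members are named; of each pathway list, up to 3 called genes with the smallest p are named, and further genes only as values; some results under this rule are not reported here. Same-numbered KO and WT samples did not deviate together (correlations of -0.24, 0.03 and -0.18), so no block was used. Alternatives were other pseudocounts, filters and scaling, voom on the recovered reads, a replicate block, and leaving out libraries. Promoter windows are from RefSeq (GRCm38.p6).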

Additional observations from a re-analysis of the deposited data

How the results depend on the processing

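Leaving out 1 library at a time gave 3371 to 5958 genes called, 1897 to 3063 higher and 1324 to 3064 lower in KO; among listed pathway genes it gave 28 to 53 called, 13 to 22 higher and 15 to 31 lower. The lowest counts came without WT replicate 2 (3371 genes, of which 60.7% higher, against 50.3% with all libraries) or WT replicate 3 (3456). Of 34 named genes, Tfrc included, 13 lost the call without WT replicate 2 and 14 without WT replicate 3, 4 with no filter (Slc38a9 at an adjusted p of 0.05, Prmt2 at 0.0539, Padi2 at 0.0619 and Il4ra at 0.0772) and 5 with a replicate block. With the replicate block, 4581 genes and 40 listed genes were called; the shared numbers are not known to pair the samples. Limma-voom on the recovered reads called 6324 genes. Leaving out KO replicate 3 and WT replicate 2 together, an alternative chosen after seeing the data, gave 4665 genes. Of the 10 members, 9 were fitted, and all of these except Ddah2 kept their sign in every alternative run. Ddah2 ranged from -0.08 to 0.13 on the log2 scale when 1 library was left out (-0.08 without KO replicate 1, -0.01 without KO replicate 2 and -0.01 without WT replicate 1). Ass1 ranged from 2.05 to 2.31, Nos3 from 1.12 to 1.46, Arg1 from -1.80 to -0.93, Nos2 from 0.56 to 1.15 and Slc7a2 from -0.86 to -0.26 over all alternatives. Arg2 rests on 5 to 30 reads a library, which leaves its level imprecise, and 3 samples a group limit the precision of the others.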
